A study of Mus musculus with 18 samples.

Results

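The genes described here are 38 genes of cell division and DNA replication, taken by symbol from a table of 19326 lines of spleen RNA-seq values, and all 38 were found and passed the filter on low values. They were kept as 16 genes of DNA replication (S phase) and 22 genes of mitosis. The spleens came from ICR mice aged 10 weeks, with 18 libraries in 6 groups of 3. Control mice had no named agent. A second group had AOS, an abbreviation left unexplained by the labels, at a dose of 10 mg/kg. Mice labelled HS were exposed to a high fat diet and STZ. The other 3 groups had the same exposure plus AOS at 10 mg/kg (HS_AOS), faecal transplant labelled AOS10mg/kg-FMT (HS_AOSFMT) or faecal transplant labelled control-FMT (HS_conFMT). Whether the 3 libraries of a group are separate animals is not stated, so the p-values below measure the spread between libraries, which may be technical. The labels give the dose and timing of neither STZ nor the transplants.

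A cell that divides first copies its DNA and then pulls the copies apart. Replication genes are switched on around the start of S phase by E2F factors, while mitotic genes peak later, in G2 and M phase. The latter are under the DREAM and B-MYB-FOXM1 complexes, which reach promoters through the CHR element. The CCAAT box is counted below as a separate motif. In the mouse spleen, dividing cells include erythroblasts of the red pulp, germinal centre B cells, plasmablasts, activated T cells and, where blood formation takes place outside the marrow, early myeloid cells. In bulk tissue, fewer cells of a type and less RNA per cell cannot be told apart.

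The promoters of 4 members are shown. Top2a held the most CHR matches of the mitotic members, and Mcm6 was one of 3 replication members with the most E2F matches. Ccnb2 is the member that passed a group test, and Cdk1 is the mitotic member with both E2F and CHR matches; these last were chosen after their values were seen. They are the 250 bases before the RefSeq start (GRCm38.p6), 5′ to 3′ on the strand of the gene. Capitals mark matches on either strand to the E2F letters TTTCGCGC, TTTGGCGC, TTTCCCGC or TTTGCCGC, to the CHR letters TTTGAA or TTCGAA, and to CCAAT; overlapping matches of 1 motif count once.

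Mcm6, a helicase subunit, chr1:128359706-128359955, minus strand: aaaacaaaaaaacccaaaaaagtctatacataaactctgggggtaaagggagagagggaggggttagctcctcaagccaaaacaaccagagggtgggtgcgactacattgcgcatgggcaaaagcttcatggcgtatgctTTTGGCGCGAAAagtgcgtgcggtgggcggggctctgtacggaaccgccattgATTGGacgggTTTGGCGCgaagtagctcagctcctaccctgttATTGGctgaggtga

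Cdk1, the kinase that drives entry into mitosis, chr10:69352913-69353162, minus strand: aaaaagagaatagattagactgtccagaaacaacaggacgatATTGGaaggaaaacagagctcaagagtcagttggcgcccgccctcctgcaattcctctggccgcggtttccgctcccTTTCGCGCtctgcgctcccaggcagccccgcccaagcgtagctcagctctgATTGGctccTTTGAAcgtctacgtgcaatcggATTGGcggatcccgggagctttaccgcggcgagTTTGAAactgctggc

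Ccnb2, a B-type cyclin that activates Cdk1, chr9:70421555-70421804, minus strand: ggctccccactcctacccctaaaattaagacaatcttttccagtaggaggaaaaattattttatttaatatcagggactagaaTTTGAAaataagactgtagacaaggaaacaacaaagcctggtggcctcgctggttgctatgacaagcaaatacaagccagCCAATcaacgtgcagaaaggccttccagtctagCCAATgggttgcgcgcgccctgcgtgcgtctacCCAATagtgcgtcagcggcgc

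Top2a, the topoisomerase that untangles sister chromatids, chr11:99024190-99024439, minus strand: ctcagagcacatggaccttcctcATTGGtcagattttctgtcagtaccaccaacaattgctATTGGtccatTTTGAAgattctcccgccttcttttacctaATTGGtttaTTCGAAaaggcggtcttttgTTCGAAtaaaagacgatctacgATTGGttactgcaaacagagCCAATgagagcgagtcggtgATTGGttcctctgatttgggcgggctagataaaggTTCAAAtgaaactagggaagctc

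Over the 300 bases from 250 before to 50 after the start, an E2F match was present in 7 of the 13 replication members with a RefSeq promoter entry (53.8%), counting a gene with several entries once if any held it: Cdc6, Cdt1, Mcm3, Mcm5, Mcm6, Mcm7 and Uhrf1. It was present in 1 of 18 mitotic members (5.56%), Cdk1. It was held by 2.60% of all 27025 genes with an entry, and by 4.56% of the genes tested here. The members Mcm2, Pcna, Rrm1, Rrm2, Tyms and Ccne1 held none. A CHR match was present in 14 of 18 mitotic members (77.8%) and 2 of 13 replication members (15.4%), against 21.7% of all genes with an entry and 16.9% of those tested. CCAAT was found in 16 of 18 mitotic (88.9%) and 9 of 13 replication members (69.2%), against 41.1% of all genes with an entry and 43.0% of those tested. Top2a held 4 CHR and 6 CCAAT matches, Mcm6 held 2 E2F and 2 CCAAT matches, and Cdk1 held 1 E2F match beside 2 CHR matches. These matches are descriptions of letters, not of bound sites. Birc5, Nusap1, Tyms and Ccne1 held no match to any of the 3 motifs. No promoter entry was at hand for Aurkb, Ccna2, Ccne2, Gins2, Kif20a, Mcm4 and Tpx2.

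The values were read as FPKM, a level scaled by gene length and by the size of the library. The deposited values do not name their unit, which was inferred from their scale and sums. Summed FPKM per library ran from 666441 to 831448, and the number of reads behind each library is unknown. Haemoglobin genes took 12.9% to 35.5% of it. Some libraries stood apart in other tissue or cell markers. Control 1 had the highest sums of the 8 early myeloid genes (953 FPKM, 42.9 to 281 in the other 17 libraries) and of the 10 neutrophil granule genes (15542 FPKM, 566 to 4226 elsewhere). HS 1 and HS_AOS 1 had the highest sums of 15 pancreatic acinar genes, at 21549 and 23942 FPKM, against 20.2 to 3563 elsewhere. The 6 sperm genes summed to 16.5 to 262 FPKM in the control libraries and to at most 2.38 in the others. B cell, T cell and erythroid markers of spleen were present in every library.

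Both classes of genes were expressed in every library. The mean level over 18 libraries ran from 13.9 FPKM (Gins2) to 354 FPKM (Pcna) among replication genes, with a median of 52.0, and from 8.26 (Cenpf) to 279 (Ube2c) among mitotic genes, with a median of 32.7. The highest library exceeded the lowest by 1.79-fold (Cdt1) to 3.57-fold (Ccne2) for replication genes, with a median of 2.32-fold. For mitotic genes the same ratio ran from 2.04-fold (Aurkb) to 3.49-fold (Ube2c), with a median of 2.82-fold. Over the 11571 tested genes at 1 FPKM or more in every library the median ratio was 1.61-fold.

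The members moved together from library to library, and mostly inside the groups. The 16 replication genes summed, in FPKM, to 1553, 1215 and 997 in control, 1122, 1179.6 and 1064 in AOS, 1289, 969 and 1122 in HS, 1186, 959.84 and 1301 in HS_AOS, 826, 1126 and 783 in HS_AOSFMT and 1244, 701 and 1046 in HS_conFMT. The 22 mitotic genes summed, in FPKM, to 1915, 1423 and 975 in control, 1181, 1243 and 1069 in AOS, 1479, 1100.02 and 1107 in HS, 1264, 972 and 1400.25 in HS_AOS, 819, 1149 and 722 in HS_AOSFMT and 1495, 629.88 and 1021 in HS_conFMT. The highest sums of both classes were in control 1 and the lowest in HS_conFMT 2. The replication sum spread least among the AOS libraries (SD 57.6 FPKM, n = 3) and most among those of control (SD 280.1 FPKM, n = 3) and HS_conFMT (SD 275 FPKM, n = 3). Control 1 was the highest library for 34 of 38 members, and HS_conFMT 2 the lowest for 33 of 38. Within groups, control 3 was lowest for 38 of 38 members, HS 1 highest for 37, HS_AOS 2 lowest for 37 and HS_AOSFMT 2 highest for 38. In HS_conFMT, library 1 was highest and library 2 lowest for 38 of 38.

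**Figure D1:**
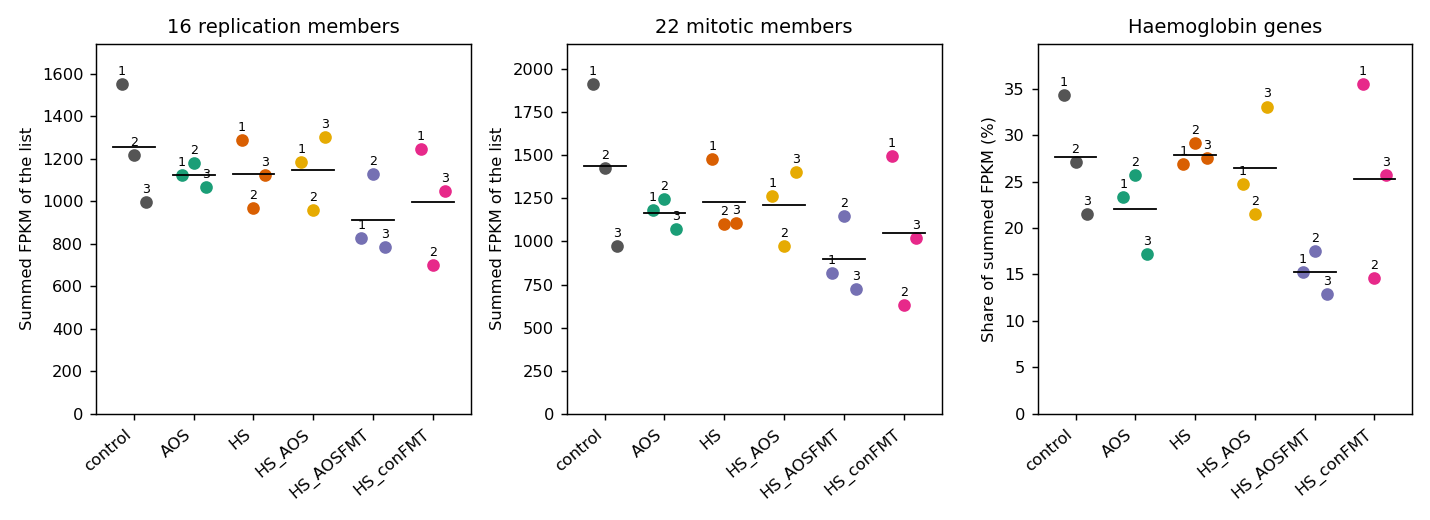
Summed FPKM of the 16 replication members (left) and 22 mitotic members (middle) and the haemoglobin share of summed FPKM in percent (right) in each library; points are libraries numbered by replicate and lines are group means. Control 1 is highest in the first 2 panels and HS_conFMT 2 lowest, and HS_AOSFMT holds the lowest group mean in each panel.

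Across the 18 libraries, Pearson's r between 2 members of the replication class was 0.68 to 0.98 with a median of 0.89, and between 2 mitotic members 0.76 to 0.99 with a median of 0.93. Between a replication and a mitotic member it was 0.64 to 0.98 with a median of 0.90. After subtracting group means, the medians were 0.93, 0.95 and 0.92. The points are libraries and share the denominator of FPKM, so these are descriptions with no p-value. In summed FPKM the pair of classes differed in amplitude: the log2 ratio of the replication sum to the mitotic sum was -0.30, -0.23 and 0.03 in control, -0.07, -0.08 and -0.01 in AOS, -0.20, -0.18 and 0.02 in HS, -0.09, -0.02 and -0.11 in HS_AOS, 0.01, -0.03 and 0.12 in HS_AOSFMT and -0.26, 0.15 and 0.03 in HS_conFMT. It was lowest in control 1 and highest in HS_conFMT 2, and its r with the haemoglobin share was -0.81 (rho -0.75). This ratio does not depend on the scaling of a library. Without the libraries farthest from the median share (HS_AOSFMT 3 and HS_conFMT 2) that r was -0.73.

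**Figure D2:**
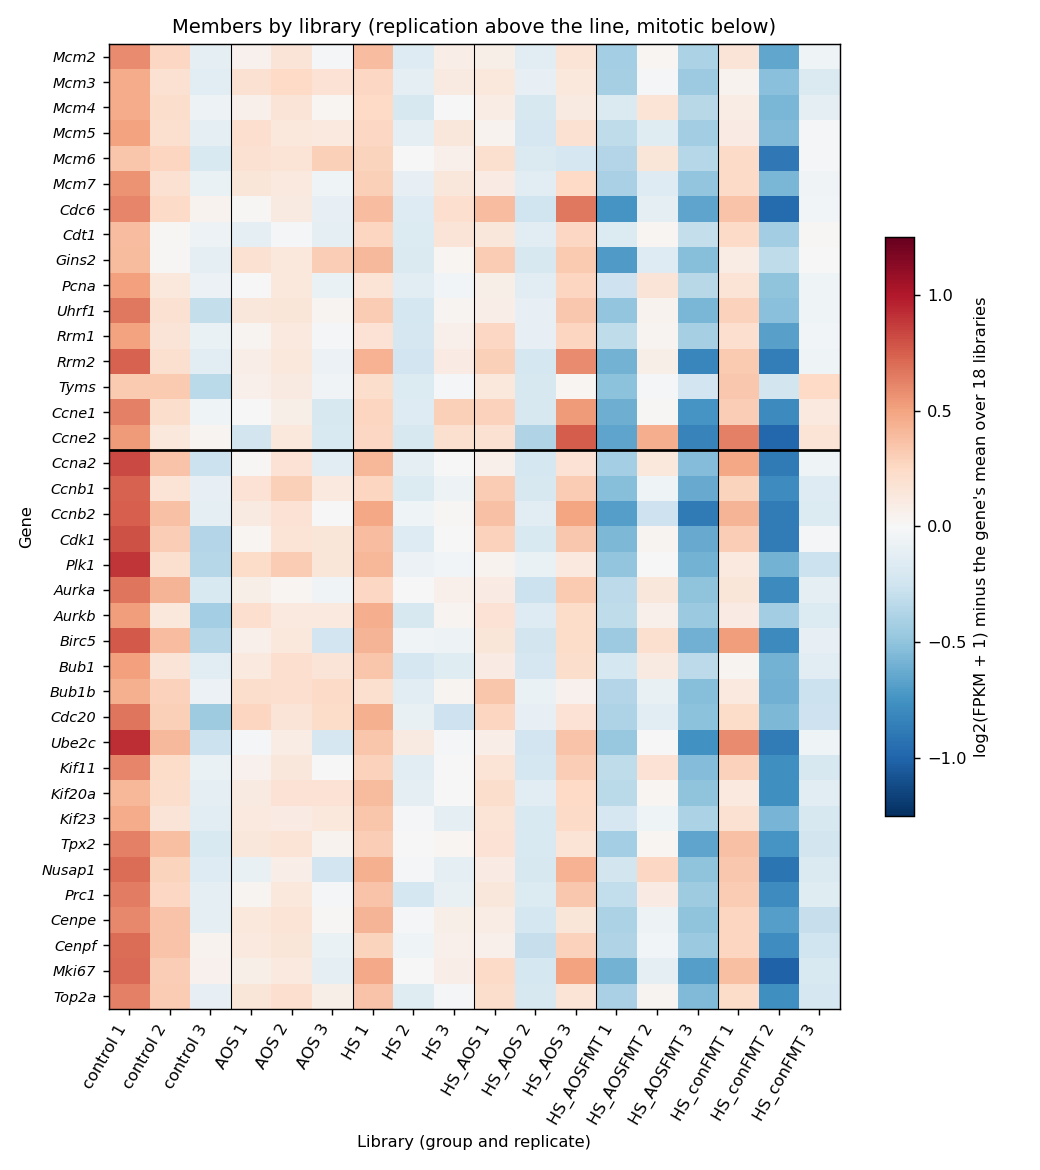
Level of each of the 38 members (rows) in each library (columns) as log2(FPKM + 1) minus the mean of the gene over 18 libraries; colour runs from blue (lower) to red (higher), and thin lines separate the groups. Control 1 is red and HS_conFMT 2 blue in nearly all rows.

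The MCM helicase, 6 subunits loaded on origins to unwind DNA, was highest in control 1 and lowest in HS_conFMT 2 for each subunit. Mcm7 was at 135, 104 and 86.1 FPKM in control, 101, 99.5 and 87.9 in AOS, 112, 84.7 and 101 in HS, 98.1, 83 and 109 in HS_AOS, 68.3, 81.1 and 64.4 in HS_AOSFMT and 108, 60.9 and 88.4 in HS_conFMT. Mcm5 was at 77.2, 62.3 and 49.9 FPKM in control, 62.6, 59.3 and 58.7 in AOS, 64.9, 49.8 and 59.5 in HS, 55.7, 46.6 and 61.9 in HS_AOS, 43.2, 48.7 and 39.8 in HS_AOSFMT and 58.05, 36.6 and 53.5 in HS_conFMT. Mcm6 was at 96.3, 90.9 and 65.95 FPKM in control, 86.1, 85.1 and 93.03 in AOS, 91.5, 75.5 and 78.8 in HS, 86.5, 66.5 and 65.2 in HS_AOS, 58.05, 83.8 and 58.7 in HS_AOSFMT and 88.9, 40.1 and 73.98 in HS_conFMT. HS_AOSFMT lay below every HS and control library for Mcm7 and Mcm5, whereas for Mcm6 library HS_AOSFMT 2 fell among them. Mcm3 was at 75.3, 62.05 and 49.2 FPKM in control, 62.1, 64.8 and 61.5 in AOS, 65.2, 50.1 and 58.7 in HS, 59.4, 50.5 and 59.8 in HS_AOS, 40.6, 53.2 and 39.5 in HS_AOSFMT and 56.1, 37.5 and 47.9 in HS_conFMT. Mcm4 was at 67.2, 56.8 and 46.5 FPKM in control, 50.7, 54.4 and 49.4 in AOS, 57.9, 42.1 and 48.8 in HS, 51.8, 42.1 and 52.6 in HS_AOS, 42.6, 54.9 and 37.9 in HS_AOSFMT and 51.7, 32.4 and 44.8 in HS_conFMT. For Mcm4, HS_AOSFMT 2 was above HS 3, so the 2 groups overlapped. The remaining subunit, Mcm2, ranged from 37.2 to 89.5 FPKM.

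Cdc6 and Cdt1 load the MCM helicase, and Gins2 is a subunit of the GINS complex that activates it. Cdc6 was at 43.9, 33.8 and 29.3 FPKM in control, 28.7, 30.8 and 26.5 in AOS, 37.3, 25.3 and 33.1 in HS, 37.4, 23.7 and 45.3 in HS_AOS, 16.6, 26.2 and 17.6 in HS_AOSFMT and 36.7, 14.1 and 27.8 in HS_conFMT. Cdt1 was at 51.2, 39.2 and 37.1 FPKM in control, 35.8, 38.5 and 35.7 in AOS, 47.1, 34.4 and 43.6 in HS, 43.05, 35.3 and 46.9 in HS_AOS, 34.3, 39.7 and 31.5 in HS_AOSFMT and 46.1, 28.6 and 39.4 in HS_conFMT. Gins2 was at 18.1, 13.7 and 12.5 FPKM in control, 15.6, 14.9 and 17.04 in AOS, 18.3, 11.8 and 13.8 in HS, 17.1, 11.7 and 17.2 in HS_AOS, 7.91, 12.1 and 9.08 in HS_AOSFMT and 14.5, 10.7 and 13.7 in HS_conFMT. All HS_AOSFMT values of Cdc6 and Gins2 lay below the control values. For Gins2, HS 2 was below HS_AOSFMT 2, so HS and HS_AOSFMT overlapped. Pcna is the sliding clamp of DNA polymerases, and Uhrf1, which ranged from 29.3 to 69.6 FPKM, guides methylation of newly made DNA. Pcna was at 499.66, 384 and 332 FPKM in control, 349.55, 384 and 329 in AOS, 394, 319 and 343 in HS, 369, 319 and 421 in HS_AOS, 292, 392 and 274 in HS_AOSFMT and 394, 246 and 338 in HS_conFMT. Control 1 was again highest and HS_conFMT 2 lowest.

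Ribonucleotide reductase (Rrm1, Rrm2) and thymidylate synthase (Tyms) make the precursors of DNA. Rrm1 was at 78.5, 61.5 and 51.8 FPKM in control, 56.2, 59.8 and 54.3 in AOS, 62.5, 47.5 and 57.5 in HS, 65.9, 51.2 and 66.5 in HS_AOS, 43.8, 56.3 and 40.8 in HS_AOSFMT and 63.7, 33.9 and 53.7 in HS_conFMT. Tyms was at 25.1, 25.2 and 15.5 FPKM in control, 20.8, 21.6 and 19.2 in AOS, 23.3, 17.5 and 19.7 in HS, 21.9, 17.1 and 20.1 in HS_AOS, 13.6, 19.5 and 16.7 in HS_AOSFMT and 25.4, 16.8 and 23.7 in HS_conFMT. Tyms departed from the class in that HS_conFMT 1 was its highest library and HS_AOSFMT 1 its lowest. Rrm2 ranged from 47.1 to 145 FPKM. E-type cyclins (Ccne1, Ccne2) activate Cdk2 at the start of S phase. Ccne1 was at 53.2, 40.02 and 32.8 FPKM in control, 34.3, 36.03 and 29.6 in AOS, 41.4, 30.4 and 42.3 in HS, 41.8, 29.5 and 49.7 in HS_AOS, 21.9, 34.4 and 20 in HS_AOSFMT and 42.6, 19.3 and 37.1 in HS_conFMT. Ccne2 had the widest fold range of all members, 9.23 to 33.0 FPKM, and its highest library was HS_AOS 3.

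Cyclin A2 (Ccna2) acts in S and G2 phase, and the B-type cyclins act with Cdk1 in mitosis. Ccna2 was at 132, 94.9 and 60.9 FPKM in control, 74.7, 83.95 and 66.9 in AOS, 98.7, 67.9 and 73.9 in HS, 76.9, 63.05 and 83.5 in HS_AOS, 54.6, 80.7 and 50.2 in HS_AOSFMT and 103, 39.4 and 71.1 in HS_conFMT. Ccnb1 was at 57.6, 38.6 and 31.9 FPKM in control, 38.99, 42.2 and 37.3 in AOS, 41.4, 30.3 and 32.7 in HS, 42.9, 29.6 and 42.8 in HS_AOS, 23.3, 32.96 and 21.7 in HS_AOSFMT and 41.6, 19.4 and 30.4 in HS_conFMT. Ccnb2 was at 100.1, 76.2 and 54.5 FPKM in control, 63.8, 67.1 and 59.3 in AOS, 83.2, 56.9 and 59.7 in HS, 76.2, 53.7 and 83.5 in HS_AOS, 36.3, 49.1 and 31.5 in HS_AOSFMT and 79.6, 31.7 and 52.3 in HS_conFMT. The 3 HS_AOSFMT libraries lay below all control and HS libraries for Ccnb2 but not for Ccna2 or Ccnb1, where HS_AOSFMT 2 was the exception. Cdk1 ranged from 15.4 to 51.2 FPKM. Among the mitotic kinases, Aurora A (Aurka) acts at spindle poles. Aurka was at 43.7, 36.8 and 23.7 FPKM in control, 28.7, 27.6 and 26.3 in AOS, 32.7, 27.3 and 28.4 in HS, 29.2, 22.3 and 34.3 in HS_AOS, 21.5, 30.1 and 18.9 in HS_AOSFMT and 30.2, 15.2 and 25.1 in HS_conFMT. Plk1 ranged from 17.3 to 50.1 FPKM and Aurkb from 17.3 to 35.4 FPKM. Birc5 (survivin) belongs to the chromosomal passenger complex with Aurkb. Birc5 was at 246, 187 and 112 FPKM in control, 150.31, 158 and 121 in AOS, 193, 139 and 137 in HS, 159.62, 122 and 168 in HS_AOS, 104, 165 and 94.5 in HS_AOSFMT and 206, 82.3 and 133 in HS_conFMT. Birc5 was lowest in HS_conFMT 2 and highest in control 1.

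Bub1 and Bub1b serve the spindle checkpoint, which holds back the anaphase promoting complex until chromosomes are attached; Cdc20 activates that complex and Ube2c is its ubiquitin donor. Bub1b was at 19.5, 17.3 and 13.2 FPKM in control, 16.5, 16.4 and 16.8 in AOS, 16.3, 12.6 and 14.4 in HS, 18.2, 13.2 and 14.6 in HS_AOS, 10.6, 13.1 and 9.39 in HS_AOSFMT and 15.3, 8.92 and 11.5 in HS_conFMT. Ube2c was at 507, 354 and 221 FPKM in control, 264, 284 and 229.87 in AOS, 340.41, 289 and 263 in HS, 283, 225 and 341 in HS_AOS, 191, 265 and 158 in HS_AOSFMT and 401, 146 and 257 in HS_conFMT. For Bub1b every control library was above every HS_AOSFMT library, while for Ube2c control 3 was below HS_AOSFMT 2. Bub1 ranged from 5.47 to 12.9 FPKM and Cdc20 from 24.2 to 57.8 FPKM. Kif11, Kif20a and Kif23 are spindle motors, and Nusap1, Prc1 and Tpx2 bind spindle microtubules. Kif20a was at 21.8, 18.9 and 14.8 FPKM in control, 17.4, 18.4 and 18.3 in AOS, 21.5, 14.7 and 16.1 in HS, 18.9, 14.6 and 19.3 in HS_AOS, 12.5, 16.4 and 11.04 in HS_AOSFMT and 17.6, 9.03 and 14.5 in HS_conFMT. Nusap1 was at 87.3, 65.5 and 47.99 FPKM in control, 50.2, 56.9 and 45.4 in AOS, 73.3, 53.2 and 49.5 in HS, 57.8, 46.6 and 72.95 in HS_AOS, 45.6, 64.4 and 37.5 in HS_AOSFMT and 68.1, 27.9 and 47.1 in HS_conFMT. Prc1 was at 57.2, 43.7 and 33.6 FPKM in control, 37.3, 39.97 and 35.8 in AOS, 46.8, 31.1 and 34.1 in HS, 40.2, 32.3 and 46.1 in HS_AOS, 29.2, 39.1 and 26.4 in HS_AOSFMT and 45.6, 20.7 and 32.6 in HS_conFMT. In these 3 genes control 1 was the highest library and HS_conFMT 2 the lowest. Kif11 ranged from 13.2 to 35.6, Kif23 from 11.4 to 24.6 and Tpx2 from 21.0 to 55.7 FPKM.

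Cenpe and Cenpf bind centromeres, Mki67 coats mitotic chromosomes and is the usual marker of dividing cells. Cenpe was at 16.8, 14.04 and 9.85 FPKM in control, 11.8, 12.2 and 10.8 in AOS, 14.7, 10.6 and 11.4 in HS, 11.5, 9.10 and 12 in HS_AOS, 7.92, 10.2 and 7.29 in HS_AOSFMT and 13.1, 6.29 and 8.64 in HS_conFMT. Cenpf was at 13.6, 10.5 and 8.32 FPKM in control, 8.85, 9.01 and 7.5 in AOS, 9.93, 7.71 and 8.43 in HS, 8.43, 6.37 and 9.99 in HS_AOS, 5.96, 7.80 and 5.56 in HS_AOSFMT and 9.85, 4.25 and 6.60 in HS_conFMT. Mki67 was at 192, 145 and 121 FPKM in control, 123, 127 and 108 in AOS, 163, 116 and 124 in HS, 138, 100.01 and 166 in HS_AOS, 77.2, 108 and 71.8 in HS_AOSFMT and 152, 57.3 and 102 in HS_conFMT. HS_AOSFMT lay below every HS library for Cenpe and Mki67, and below every control library for Cenpf and Mki67. Top2a ranged from 36.6 to 97.6 FPKM. The pseudogenes Pcna-ps1, Pcna-ps2, Tyms-ps, Ccnb1-ps and Ccnb2-ps are near copies of members, and how the counting treated such reads is not given in the sources used here.

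Differences between groups were tested with limma on log2(FPKM + 1) over 12969 genes, with a call at a Benjamini-Hochberg adjusted p under 0.05. No change of a member with the high fat diet and STZ was detected. HS against control gave 0 of 38 calls and 0 members at an unadjusted p under 0.05, against 0.0154% of all tested genes called. The members lay lower in 37 of 38 cases, by a median of -0.13 on the log2 scale for replication and -0.18 for mitotic genes, with the median of all genes at -0.015. Without control 1 these medians were 0.05 and 0.03, so the direction rests on that library. Without control 3 they were -0.29 and -0.41. The smallest p-values belonged to Cenpf (-0.27, SE 0.23, adjusted p = 0.920), Bub1b (-0.19, SE 0.18), Mcm4 (-0.19, SE 0.18) and Pcna (-0.19, SE 0.18).

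AOS without the diet gave 0 calls among the 38 members, with 0 at an unadjusted p under 0.05 (0.00771% of all genes were called). The medians were -0.15 for replication and -0.16 for mitotic genes. They were 0.01 and 0.01 without control 1, and -0.29 and -0.38 without control 3. Cenpf at -0.30 (SE 0.23), Ube2c at -0.40 (SE 0.33), Cdt1 at -0.19 (SE 0.17) and Ccne1 at -0.30 (SE 0.28) had the smallest p-values. AOS given with the diet and STZ, HS_AOS against HS, gave 0 calls and 0 members at an unadjusted p under 0.05 (0% of all genes called). The medians were 0.03 and 0.00, and the members split into 17 lower and 21 higher. Mcm6 at -0.18 (SE 0.24), Rrm1 at 0.13 (SE 0.20), Cenpe at -0.15 (SE 0.22) and Ccnb1 at 0.13 (SE 0.26) were the first by p. HS_AOS against control gave 0 calls as well, with 0 at an unadjusted p under 0.05 (0.0925% of all genes called). Its medians of -0.10 and -0.16 became 0.073 and 0.026 without control 1, and -0.26 and -0.37 without control 3. Mcm4, Mcm5, Cenpf and Cenpe led at -0.21, -0.19, -0.35 and -0.27. The test of whether AOS acted differently with and without the diet gave 0 calls and 0 members at an unadjusted p under 0.05 (0.00771% of all genes called). The medians of that difference were 0.12 and 0.20, -0.039 and -0.040 without control 1, and 0.29 and 0.38 without control 3. The smallest p-values belonged to Rrm1 (0.28, SE 0.29), Cdc6 (0.41, SE 0.42), Nusap1 (0.36, SE 0.42) and Prc1 (0.30, SE 0.36).

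In the group given the AOS transplant, members of both classes sat lower than in HS, but none passed the test. HS_AOSFMT against HS gave 0 of 38 calls, where 9.23% of all tested genes were called, 8.08% higher and 1.15% lower. All 38 log2 changes were below 0, with medians of -0.38 for both classes and 0.10 for all genes. The members moved together, so their directions are not separate observations. For replication and mitotic genes the medians were -0.27 and -0.24 without HS 1, and -0.51 and -0.53 without HS_AOSFMT 2. At an unadjusted p under 0.05 there were 8 members, 5 of replication and 3 of mitosis. Over all tested genes there were 3631 of 12969 in either direction, a larger share than 8 of 38. Gins2 was at -0.55 (SE 0.19, adjusted p = 0.0791), Mcm7 at -0.47 (SE 0.19, adjusted p = 0.126), Ccnb2 at -0.76 (SE 0.29, adjusted p = 0.108) and Mki67 at -0.65 (SE 0.29, adjusted p = 0.157). The groups did not overlap for Mcm5, Mcm7, Ccnb2, Cenpe and Mki67, that is 5 of 38 members, and 7.64% of all genes were lower without overlap.

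Against control, the same group gave 1 call, Ccnb2, at -0.95 (SE 0.29, adjusted p = 0.0482, lower in all 3 libraries than in any control library). The mean level of Ccnb2 was 38.9 FPKM ± 9.13 (SD, n = 3) in HS_AOSFMT and 76.9 FPKM ± 22.8 (SD, n = 3) in control. Of all tested genes 12% were called in this comparison, 2.34% lower, so 1 of 38 is near that share. The medians were -0.50 for replication and -0.57 for mitotic genes, against 0.09 for all genes. An unadjusted p under 0.05 was found for 20 of 38 members and, in either direction, for 4133 of 12969 tested genes. The medians were -0.33 and -0.34 without control 1, and -0.66 and -0.81 without control 3. Bub1b (-0.55, SE 0.18, adjusted p = 0.0539), Mcm7 (-0.58, SE 0.19, adjusted p = 0.0577) and Gins2 (-0.57, SE 0.19, adjusted p = 0.0612) came next. The groups did not overlap for 8 members, Mcm5, Mcm7, Cdc6, Gins2, Ccnb2, Bub1b, Cenpf and Mki67, against 8.3% of all genes lower without overlap. The count of calls turned on single libraries: it was 20 without control 3, where 6.27% of all genes were called lower, and 4 without HS_AOSFMT 2, where 1.54% were. It was 0 without any other library of either group, and without control 1 the share of all genes called lower was 0.734%. HS and HS_AOSFMT comparisons share libraries, as do those with control, so their values are not independent of each other.

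**Figure D3:**
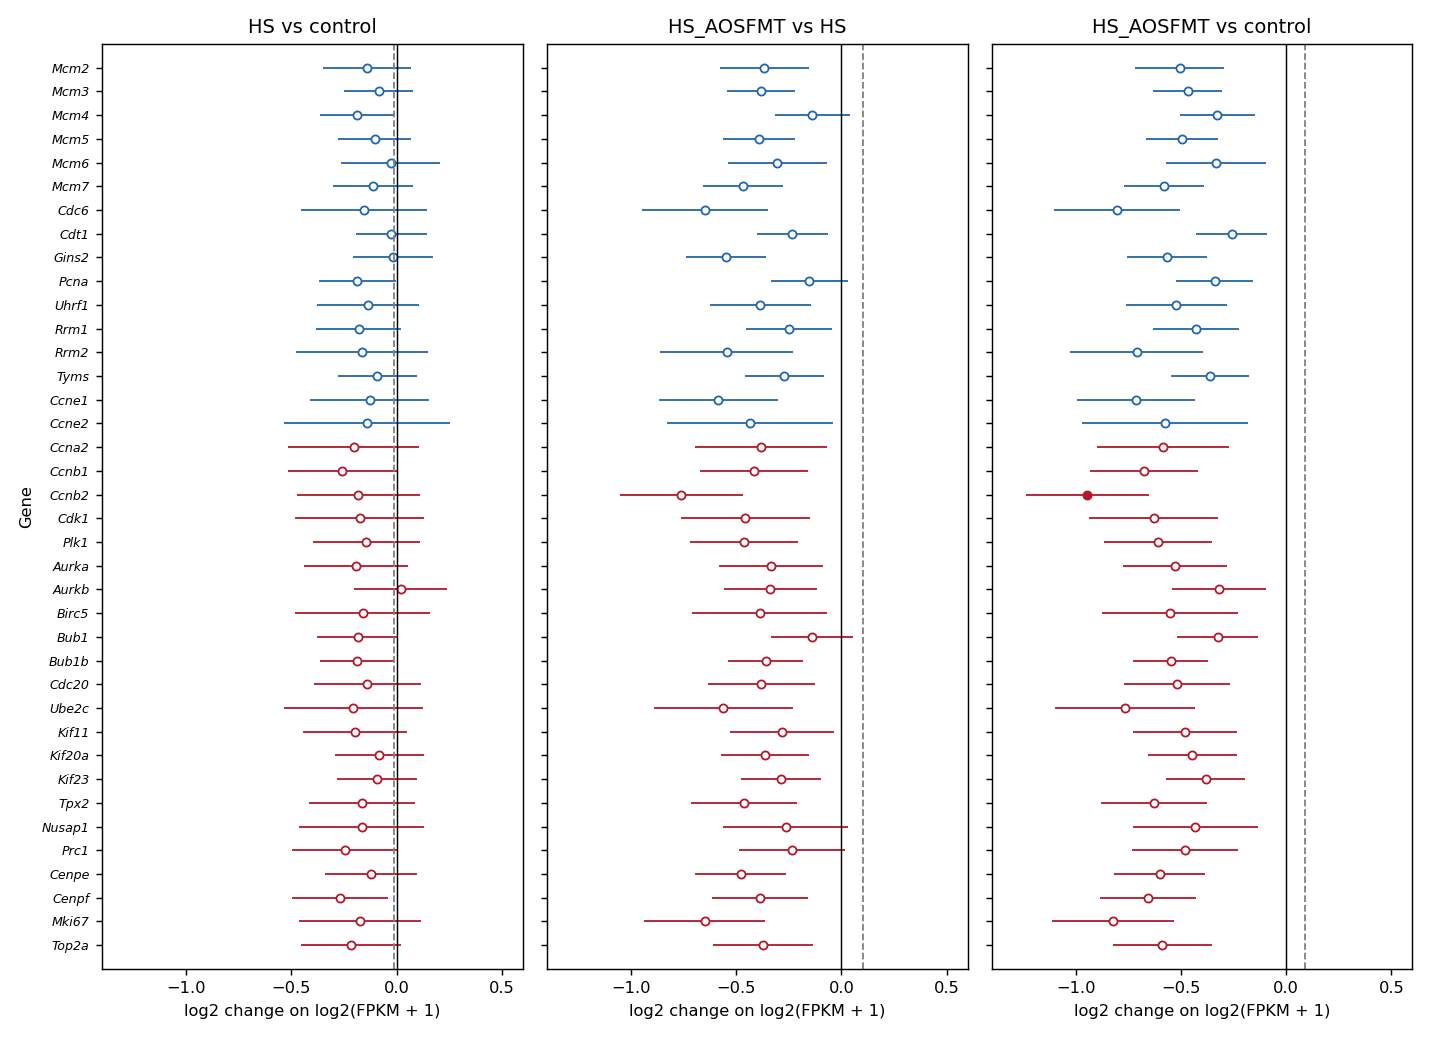
Log2 change (point) with its standard error (bar) of each member in 3 comparisons; blue is replication, red is mitotic, a filled point passed an adjusted p of 0.05, and the dashed line is the median of all tested genes. Only Ccnb2 in HS_AOSFMT against control is filled, and all points of the middle and right panels lie left of 0.

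HS_conFMT differed from HS in 0 of 38 members, with 0 at an unadjusted p under 0.05 (0.00771% of all genes called), and medians of -0.23 and -0.28. Its first members by p were Mcm3 (-0.30, SE 0.16), Mcm6 (-0.34, SE 0.24), Cenpe (-0.39, SE 0.22) and Kif20a (-0.35, SE 0.21). Without HS_conFMT 2 the medians were 0.03 and -0.05, and without HS_conFMT 1 they were -0.40 and -0.55. HS_conFMT against control gave 0 calls and 9 members at an unadjusted p under 0.05 (0.0386% of all genes called, 1521 of 12969 at that unadjusted p). Its medians of -0.36 and -0.47 became -0.12 and -0.20 without HS_conFMT 2, and -0.54 and -0.74 without HS_conFMT 1. Mcm3, Mcm4, Cenpf and Bub1b led at -0.39, -0.41, -0.62 and -0.47. The 2 transplants compared directly, HS_AOSFMT against HS_conFMT, gave 0 calls and 0 members at an unadjusted p under 0.05, where 5.85% of all genes were called. The medians were -0.19 and -0.08. They turned to 0.04 and 0.17 without HS_conFMT 1, and were -0.40 and -0.31 without HS_conFMT 2. Gins2 at -0.39 (SE 0.19), Tyms at -0.38 (SE 0.19), Ccnb2 at -0.40 (SE 0.29) and Ube2c at -0.30 (SE 0.33) came first.

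The level of the members followed the haemoglobin share of the library. The share was 34.4, 27.1 and 21.5 in control, 23.3, 25.6 and 17.2 in AOS, 26.8, 29.1 and 27.5 in HS, 24.8, 21.5 and 33.1 in HS_AOS, 15.3, 17.6 and 12.9 in HS_AOSFMT and 35.5, 14.7 and 25.7 in HS_conFMT, in percent of summed FPKM. Over the 18 libraries, the mean log2 level of the replication genes had an r of 0.82 (rho 0.78) with the share, and that of the mitotic genes 0.79 (rho 0.73). After subtracting group means the values were 0.82 and 0.85. Without the 2 libraries farthest from the median share, HS_AOSFMT 3 and HS_conFMT 2, they were 0.73 and 0.69. Both quantities come from the same library and share its FPKM denominator. With all values rescaled to the total without haemoglobin genes, r was 0.87 and 0.85. By gene, r ran from 0.55 (Mcm6) to 0.90 (Ube2c), with a median of 0.77 in each class, whereas the median of all 12969 genes was -0.36. HS was the exception among groups: its shares lay within 26.8% to 29.1%, and HS 2, with the highest share, had the lowest replication sum of the 3.

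**Figure D4:**
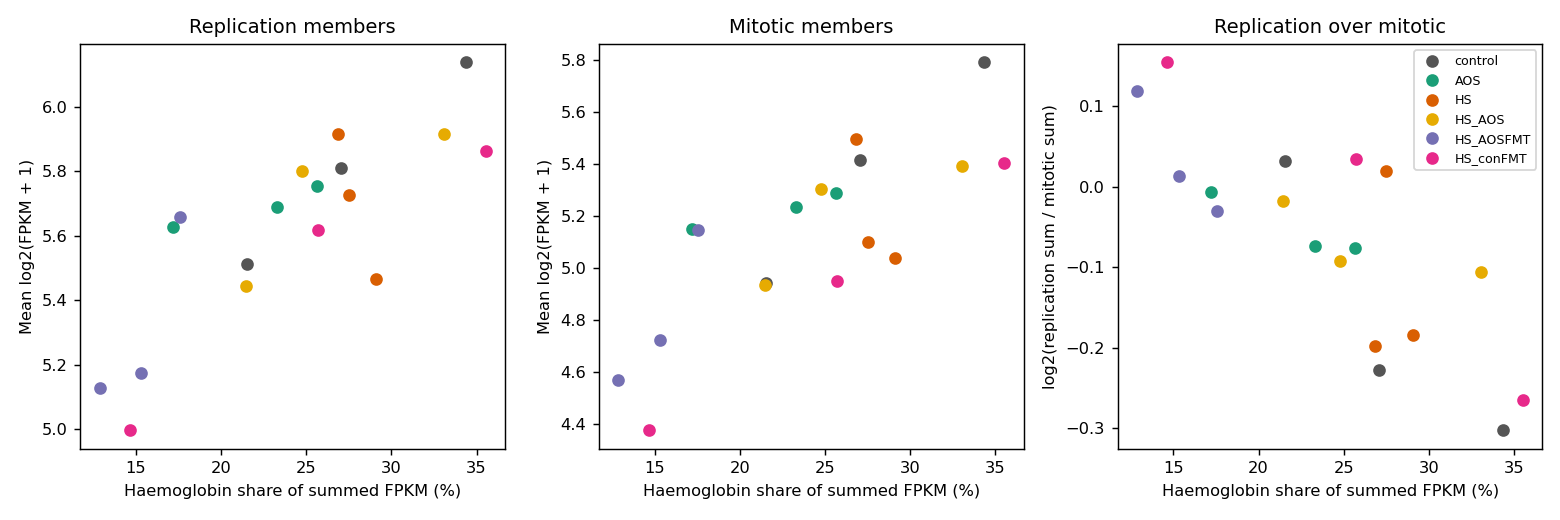
Mean log2(FPKM + 1) of the replication members (left) and mitotic members (middle), and log2 of the replication sum over the mitotic sum (right), against the haemoglobin share of summed FPKM in percent; each point is a library, coloured by group. Both means rise along the axis, with r of 0.82 and 0.79, and the ratio falls, with r of -0.81.

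A limma fit of the slope on log2 haemoglobin share, with group as a factor, was added after the data were seen. It compares libraries inside groups, and its unit is the change in log2 level per doubling of the share. The members were chosen with earlier results of these data known. The calls and p-values of this fit are therefore descriptions and not independent support for the relation. In this fit 37 of 38 members were called higher along the share, 15 of 16 replication and 22 of 22 mitotic genes. Of all tested genes 7.22% were called higher and 20.3% lower. The median slope was 0.62 for replication, 0.80 for mitotic and -0.14 for all genes. Ube2c had the smallest p, at 1.14 (SE 0.13, adjusted p = 5.70e-05). Cenpf (0.78, SE 0.10), Mki67 (0.97, SE 0.13), Nusap1 (0.99, SE 0.13), Ccna2 (1.02, SE 0.15), Aurka (0.81, SE 0.12), Mcm7 (0.63, SE 0.10), Ccnb2 (0.95, SE 0.15), Birc5 (1.05, SE 0.16) and Ccne1 (0.91, SE 0.14) followed. The steepest slope was that of Ccne2, 1.23 (SE 0.22), and within the replication class Rrm2, Cdc6 and Ccne1 were steeper than the MCM subunits, whose slopes were 0.47 to 0.63. Gins2, at 0.37 (SE 0.16, adjusted p = 0.0955), was the member that did not pass. On the scale without haemoglobin genes 37 of 38 were again called higher, where 8.62% of all genes were.

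**Figure D5:**
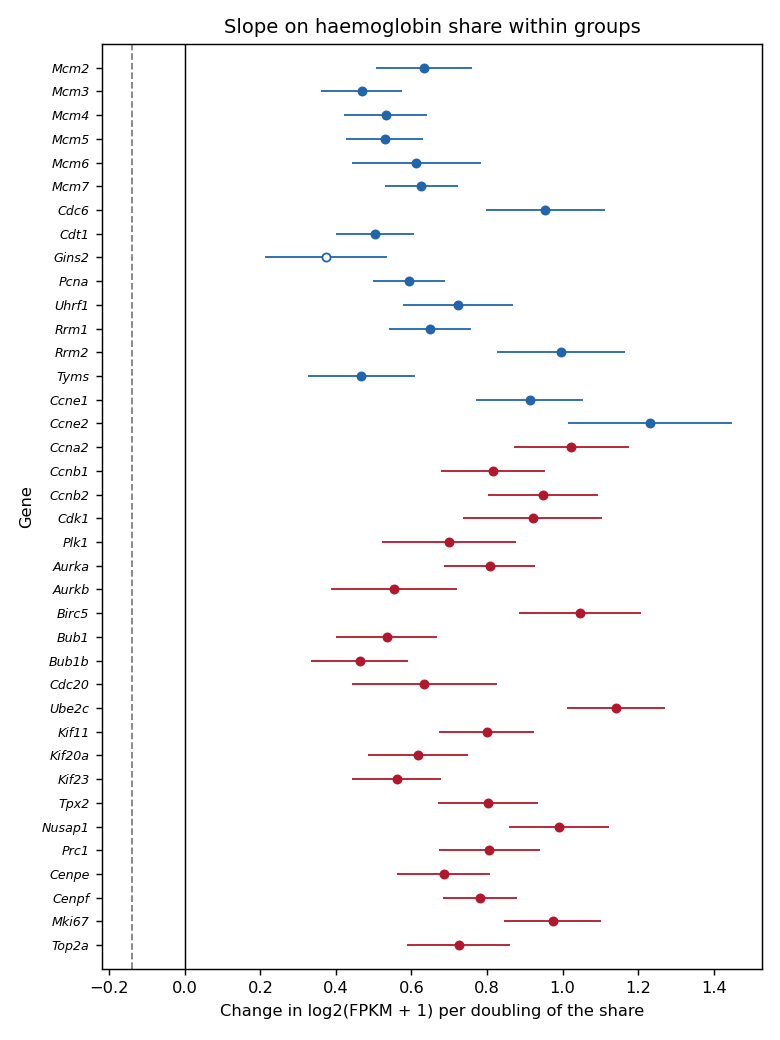
Slope of each member, in change of log2(FPKM + 1) per doubling of the haemoglobin share within groups (point), with its standard error (bar); blue is replication, red is mitotic, filled points passed an adjusted p of 0.05 and the dashed line is the median of all tested genes, -0.14. All 38 slopes are above 0 and Gins2 is the open point.

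The calls of this fit depended on a few libraries. Leaving out 1 library at a time gave 28 (without HS_conFMT 2) to 38 calls, with 34 without control 1. The share of all genes called higher was 4.42% without HS_conFMT 2 and 6.26% without control 1. With control 1 and HS_conFMT 2 both set aside, 3 members were called, Ube2c, Nusap1 and Cenpf, where 1.54% of all genes were called higher. In that fit all 38 slopes stayed above 0, 32 had an unadjusted p under 0.05, and the median slopes were 0.48 for replication and 0.69 for mitotic genes.

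Other genes of the cycle moved with the members along the share. Among 38 further replication genes 30 were called higher and 0 lower, with a median slope of 0.57; they include Asf1b, a histone chaperone (0.69, SE 0.10), Slbp, which binds histone mRNA (0.72, SE 0.11), and Orc1 of the origin recognition complex (0.88, SE 0.14). Among 51 further mitotic genes 46 were called higher and 0 lower, with a median of 0.67, such as Spag5 (0.90, SE 0.11), the phosphatase Cdc25b (0.65, SE 0.08) and the kinetochore gene Spc25 (0.88, SE 0.11). Of 30 cycle regulators 14 were called higher and 5 lower, beside 7.22% of all tested genes called higher and 20.3% lower. The 5 lower calls were near that share. Tfdp2, an E2F partner (0.98, SE 0.12), Fzr1 (0.80, SE 0.10) and E2f8 (1.01, SE 0.16) were among the higher. Of 16 cycle inhibitors 4 were called higher and 4 lower, the latter again near 20.3%. The first by p were Foxo3 (0.59, SE 0.08), Gadd45a (0.76, SE 0.13) and Cdkn2c (0.71, SE 0.13), all higher.

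Between groups these lists gave few calls, beside 8.08% of all tested genes called higher and 1.15% lower in HS_AOSFMT against HS. In HS_AOSFMT against HS, 1 of 38 further replication genes was called, the maintenance methyltransferase Dnmt1, lower at -0.31 (SE 0.09, adjusted p = 0.0478), and 0 of 51 further mitotic genes, with Cdc25b first at -0.52 (SE 0.19, adjusted p = 0.0904). The regulator E2f5 was higher at 0.52 (SE 0.16), as were 3 of 16 inhibitors, Cdkn2b (0.45, SE 0.11), Ccng1 (0.39, SE 0.10) and Btg1 (0.56, SE 0.17). Against control, the polymerase subunit Pole was lower at -0.77 (SE 0.21), Pold1 higher at 0.32 (SE 0.09) and Cdkn3 lower at -1.11 (SE 0.34). Of the regulators 2 of 30 were higher, Ccnd2 (0.65, SE 0.15) and Myc (0.51, SE 0.16), and 2 lower, of which E2f2 had the smaller p (-0.97, SE 0.29). Of all tested genes 9.68% were called higher and 2.34% lower against control, so 2 of 30 higher does not exceed that share. Btg1 (0.79, SE 0.17), Ccng1 (0.34, SE 0.10) and the p53 target Cdkn1a (0.49, SE 0.15) were higher, that is 3 of 16 inhibitors. In HS_AOSFMT against HS_conFMT, Wee1, which restrains Cdk1, was higher at 0.40 (SE 0.11) and Ccng1 at 0.44 (SE 0.10). There 4.81% of all tested genes were called higher.

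Erythroid and lymphoid markers also changed along the share. Of 23 erythroid genes 22 were called higher along the share, among them Alas2, which starts haem synthesis in erythroid cells (slope 1.24, SE 0.06). Of 10 genes of erythroid progenitors, some of them in both lists, 9 were called higher, among them the erythroid factor Klf1 (1.20, SE 0.12). After subtracting group means, the mean of the progenitor genes had an r of 0.97 with the replication and 0.95 with the mitotic mean. Without that step the values were 0.91 and 0.88. Other lists also had a within-group r with the 2 means. It was -0.91 and -0.91 for B cell genes and -0.81 and -0.80 for T cell genes. For early myeloid genes it was 0.63 and 0.69, and for neutrophil granule genes 0.57 and 0.63. Germinal centre genes had -0.17 and -0.02, plasma cell genes -0.25 and -0.17, and macrophage genes -0.41 and -0.49. Megakaryocyte genes had 0.42 and 0.45, acinar genes 0.43 and 0.44, and sperm genes 0.16 and 0.22. On the scale without haemoglobin genes, B cell genes had -0.82 and -0.86, T cell genes -0.69 and -0.72, and progenitor genes 0.98 and 0.96. Of 10 B cell genes 9 were called lower along the share, with Cd22 at -0.63 per doubling (SE 0.09). Of 12 T cell genes 6 were called lower, with Cd4 at -0.52 (SE 0.13). Of 9 germinal centre B cell genes 2 were called lower, Bcl6 and Fas, and of 10 plasma cell genes 2 were, Irf4 and Prdm1. Both counts were near the 20.3% of all genes called lower. Early myeloid, neutrophil granule, macrophage, megakaryocyte, acinar and sperm genes gave 0 calls by limma, and 0 of them had an unadjusted p under 0.05. The early myeloid slopes had a median of 1.18 on a wide spread, with Ctsg first (1.33, SE 0.72, adjusted p = 0.186). The part of these cell types in the slopes was not tested.

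Several marker lists differed in the comparisons of HS_AOSFMT with HS and with control. Of all tested genes 8.08% were called higher and 1.15% lower against HS, and 9.68% higher and 2.34% lower against control. In HS_AOSFMT against HS, 3 of 23 erythroid genes were called lower, Bpgm (-1.16, SE 0.28), Fech (-1.16, SE 0.32) and Alas2 (-1.16, SE 0.34), and 23 of 23 were below 0. The summed level of the 23 erythroid genes was 2331 to 4066 FPKM in HS_AOSFMT, 4363 to 5405 in HS and 4108 to 6677 in control, and none of the markers was at 0. Of 12 T cell genes 5 were called higher, with Il7r at 1.22 (SE 0.18), and their sum was 667 to 823 FPKM in HS_AOSFMT and 454 to 570 in HS. The acinar genes gave 13 calls of 15, all lower, with Try5 at -7.91 (SE 1.77), Ctrb1 at -8.56 (SE 1.99) and Cela3b at -7.85 (SE 1.87), and their sum was 20.2 to 58.5 FPKM in HS_AOSFMT and 2455 to 21549 in HS. The plasma cell gene Sdc1 (-0.67, SE 0.18) and the iron exporter Slc40a1 of macrophages (-0.60, SE 0.17) were lower too, 1 of 10 in each list. The germinal centre genes gave 0 calls against HS, with 3 of 9 at an unadjusted p under 0.05, where 3631 of 12969 tested genes were. Against control, 3 of 9 germinal centre genes were higher, Fas (0.95, SE 0.16), Bcl6 (0.52, SE 0.12) and Basp1 (0.58, SE 0.18), as were 2 of 10 plasma cell genes, Xbp1 (0.50, SE 0.14) and Prdm1 (0.61, SE 0.17). There 6 of 23 erythroid genes were lower, led by Fech at -1.22 (SE 0.32), and 11 of 12 T cell genes higher, led by Il7r at 1.38 (SE 0.18). The macrophage gene Vcam1 was higher (0.71, SE 0.14) and Slc40a1 lower (-0.58, SE 0.17). The 4 sperm genes tested were lower, with Tnp1 at -3.28 (SE 0.53). The part of these markers in the members' levels was not tested. With the haemoglobin share as a covariate, the median member change in HS_AOSFMT against HS was 0.21 for replication and 0.28 for mitotic genes, and against control 0.073 and 0.083, with 0 calls in either. The direction of the members in these comparisons therefore depends on whether the share is in the fit. In HS_AOSFMT against HS_conFMT the covariate gave 3 calls, all higher, where 2.71% of all genes were called higher: Nusap1 (0.74, SE 0.16, adjusted p = 0.0179), Cenpf (0.47, SE 0.12) and Aurka (0.55, SE 0.15). The share was itself lower in all 3 HS_AOSFMT libraries than in any HS or control library, so group and share cannot be told apart there.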

How the data were processed

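RNA of 18 mouse spleen libraries was sequenced with standard Illumina preparation, per the labels. The authors deposited 1 table of expression values per gene and library. It does not name its unit; the deposited values were read as FPKM from their scale and sums. Bowtie 0.12.2 and the mm10 build are named in the submitters' processing notes. The counter, annotation and filters were not given in the sources used here. Read depth is unknown, so no counting interval could be given.

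The 38 members and the gene lists were chosen with earlier results of these data known. A gene was tested if 3 or more libraries reached 1 FPKM, which left 12969 genes, analysed on log2(FPKM + 1) with limma 3.58.1 in R 4.3.3, group as the only factor over all 18 libraries, trended and robust variance, Benjamini-Hochberg adjustment within each of 10 comparisons and two-sided p-values. Log2 changes understate the change of low genes. The haemoglobin share is the summed FPKM of 12 haemoglobin genes over that of all genes. Named were the called members (up to 10 by p) or the 2 of each class with the smallest p, and from each other list up to 3 called genes; promoters were those with most motif matches, and Ccnb2 and Cdk1, chosen after their values were seen. The limma fit was also run on simulated data, with genes drawn independently and their spread capped. That setting differs from these data, where the members moved together. Gene coordinates were not converted between builds.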

Additional observations from a re-analysis of the deposited data

How the results depend on the processing

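Of the 10 group comparisons, 8 kept 0 called members under every alternative run: a pseudocount of 0.1, no filter on low values, scaling without haemoglobin genes, median-of-ratios scaling, the haemoglobin share as covariate, a replicate block, a fit to the compared groups alone, 3 libraries with other-tissue or granulocyte RNA set aside (HS 1, HS_AOS 1 and control 1), and leaving out each library. The exceptions were HS_AOSFMT against control and HS_AOSFMT against HS_conFMT. In HS_AOSFMT against control the single call, Ccnb2, was lost (0 called) with no filter, with median-of-ratios scaling, with the covariate, in the fit to 2 groups and with the 3 libraries set aside; leaving out 1 library gave 0 to 20. In HS_AOSFMT against HS_conFMT the covariate gave 3 calls, with 2.71% of all genes called higher. With the covariate the medians became 0.21 (replication) and 0.28 (mitotic) in HS_AOSFMT against HS, 0.30 and 0.41 against HS_conFMT, and 0.073 and 0.083 against control; the covariate takes up part of the difference by its construction, since the share differs between these groups.

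The replicate block gave 4 calls in HS_AOSFMT against control, Mcm5, Mcm7, Ccnb2 and Bub1b, all lower, where 3.04% of all genes were called lower. The replicate numbers were not taken to pair libraries, since the labels do not say that they mark a shared batch. In 1 of 15 pairs of groups, HS with HS_AOS, all same-number correlations exceeded 0.1. Their mean was 0.382 there, against -0.191 for libraries of other numbers. The lowest same-number correlation over all pairs of groups was -0.366. The block changed no other count of member calls by more than 1.5 times.

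The slope on the haemoglobin share, added after the data were seen, called 28 to 38 members with 1 library left out and 3 with control 1 and HS_conFMT 2 set aside (16 libraries in that fit); the cause was not tested. Scaling moved the median of all genes in HS_AOSFMT against HS from 0.10 to 0.01 without haemoglobin genes and 0.00 with median-of-ratios. The 3 libraries in each group and unknown read depth limit all of these tests.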
